A study of Homo sapiens with 2 samples.

Results

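Small nucleolar RNAs (snoRNAs), small Cajal body RNAs (scaRNAs), the snaR RNAs and the long non-coding host genes of snoRNAs were followed in A375 cells after knockdown of THOC2. Members were all non-control probes whose gene name on the array starts with SNORA, SNORD, SCARNA or SNHG and a number, starts with SNAR-, or is GAS5. They came to 397 probes of 339 genes, of 43316 genes named on the array. The small RNAs made up 318 genes on 350 probes (97 SNORA, 188 SNORD, 21 SCARNA and 12 SNAR genes), and the host genes 21 genes on 47 probes.

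A375 is a line established from a human malignant melanoma, and THOC2 is the large scaffold subunit of the THO complex, which couples transcription to the packaging and export of mRNA. Matching mRNAs are cut and lost once an siRNA is taken up. RNA of 1 A375 culture transfected with THOC2 siRNA (si-THOC2) and of 1 transfected with a negative control siRNA (NC) was taken at 48 h and hybridized to 1 single-colour Agilent array each. Both cultures were grown in one serum medium, both arrays sat on 1 slide and were scanned together, and which of the THOC2 siRNAs in the methods was used is not stated. No replicate culture was measured, so no test could be made and every difference is one between these 2 arrays. The labels conflict, because the source field of each sample carries the condition that the other sample's title gives. Titles and descriptions were followed, and both THOC2 probes were lower on the array labelled si-THOC2, with processed signals of 136 on NC and 40.9 on si-THOC2 (log2 fold change -1.42) and of 67.3 and 35.1 (-0.63). In bulk RNA, fewer cells of a kind and less RNA per cell cannot be told apart.

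C/D snoRNAs (SNORD) carry the C and D boxes, bind fibrillarin, NOP56, NOP58 and SNU13, and mostly guide 2′-O-methylation of rRNA. H/ACA snoRNAs (SNORA) carry the hinge box and the ACA box, bind dyskerin, NOP10, NHP2 and GAR1, and mostly guide pseudouridylation. scaRNAs guide the same changes on spliceosomal RNAs in Cajal bodies. Most human snoRNAs have no promoter of their own and are cut out of introns after splicing of a host gene. Some hosts encode ribosomal proteins or translation factors, while the SNHG genes and GAS5 are non-coding, and several of their spliced RNAs are short-lived because nonsense-mediated decay removes them. snaRs are short transcripts of RNA polymerase III.

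The value used throughout is the log2 fold change of the processed signal, which is the spot's intensity after background subtraction, scaled to the 75th percentile of each array and taken as si-THOC2 minus NC. The unscaled si-THOC2 array was dimmer (75th percentile 6.31 against 6.62 on the log2 scale), so an equal scaled level shows a lower raw signal there. A probe was compared where the scanner software called it well above background on at least 1 array, which 25345 of 58199 probes were (43.5%). The technical SD of a log2 fold change, from repeated spots, was 0.05 over a log2 signal of 8, 0.10 from 6 to 8, 0.17 from 4 to 6 and 0.42 under 4. The value from 4 to 6 rested on only 5 repeated probes and that under 4 on 15. The technical SD leaves out the differences between cultures. Levels of different probes were not set against each other. Of the lineage markers, 5 of 9 melanocyte genes were detected on NC and 6 of 9 on si-THOC2. MITF, SOX10, S100A1 and S100B were among them, while PMEL, TYR and TYRP1 were not well above background on either array. Signals of the other marker lists were detected for 2 of 4 keratinocyte, 1 of 4 fibroblast and 3 of 4 leukocyte genes on both arrays, the leukocyte ones at 24.0 to 37.4.

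Of the 350 small RNA probes, 314 were designed on the RNA's own RefSeq record, whose length had a median of 94 bases (60 to 421), so that a probe of 60 bases covers much of the RNA. The other 36 were built on ESTs or other records under the same name, 12 of them on the opposite strand, and 10 of these 36 were compared. A probe inside an intron reads the small RNA, its precursor and the unspliced host RNA alike, so these could not be told apart. The letters of the C/D probes show the family's boxes. CTGA, the D box, was in 182 of 189 own-record SNORD probes (96.3%), against 17269 of all 58199 probes (29.7%), and its reverse complement TCAG was in 15.9% and 27.2%. TGATGA, the core of the C box near the RNA's start, was in 45 (23.8%) against 2.83% of all probes, and TCATCA in 0.529% and 2.29%. The hinge box letters ANANNA were in 67.4% of 95 own-record SNORA probes and in 70.2% of all probes (TNNTNT on the other strand, 65.7% of all probes). The C/D probes that carry the values below are given 5′ to 3′, with each TGATGA or CTGA in capitals, on hg19 at chr15:25523497-25523556 (plus strand), chr3:184043500-184043559 (plus), chr22:39711218-39711277 (minus), chr22:39709824-39709883 (minus) and chr11:62622764-62622823 (minus).
SNORD109B: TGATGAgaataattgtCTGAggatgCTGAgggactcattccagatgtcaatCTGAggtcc
SNORD66: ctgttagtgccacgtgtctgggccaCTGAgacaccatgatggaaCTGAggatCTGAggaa
SNORD83A: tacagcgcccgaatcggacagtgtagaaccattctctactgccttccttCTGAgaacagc
SNORD83B: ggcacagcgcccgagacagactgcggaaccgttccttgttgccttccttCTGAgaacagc
SNORD26: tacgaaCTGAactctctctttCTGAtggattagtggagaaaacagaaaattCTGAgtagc

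Few small RNAs differed by 2-fold between the arrays. Of the 350 small RNA probes, 225 were compared (64.3%) and 210 stood well above background on each of the arrays, where the median log2 fold change was 0.06 (0.04 over all 22207 such probes). SNORA probes had a median of 0.05 over 89 probes, SNORD probes 0.06 over 95, SCARNA probes -0.04 over 17 and SNAR probes 0.19 over 9. Of the 225 compared, 4 were lower and 1 was higher by 2-fold or more, while of all probes compared 3.33% were lower and 2.93% higher. Restricted to both arrays, 1 small RNA probe was lower and 1 higher, against 0.365% and 0.829% of all probes. Of the 210 small RNA probes on both arrays, 16 differed by 0.5 or more on the log2 scale in either direction, against 2216 of the 22207 probes in all. The 10th percentile of the small RNA probes was at -0.24 and the 90th at 0.34, against -0.33 and 0.38 for all probes. No host gene probe reached 2-fold in either direction. All 38 compared were on both arrays, where 0.365% of all probes were lower and 0.829% higher by that much. At such shares, the lack of a call among 38 probes says little about the host genes. With genes as the unit and probes on at least 1 array, 3.58% of all genes were lower and 3.28% higher. Among the 12373 bright probes of the array, those with a log2 signal past 7 on each array, 2-fold was passed downward by 0.145% and upward by 0.202%.

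**Figure D1:**
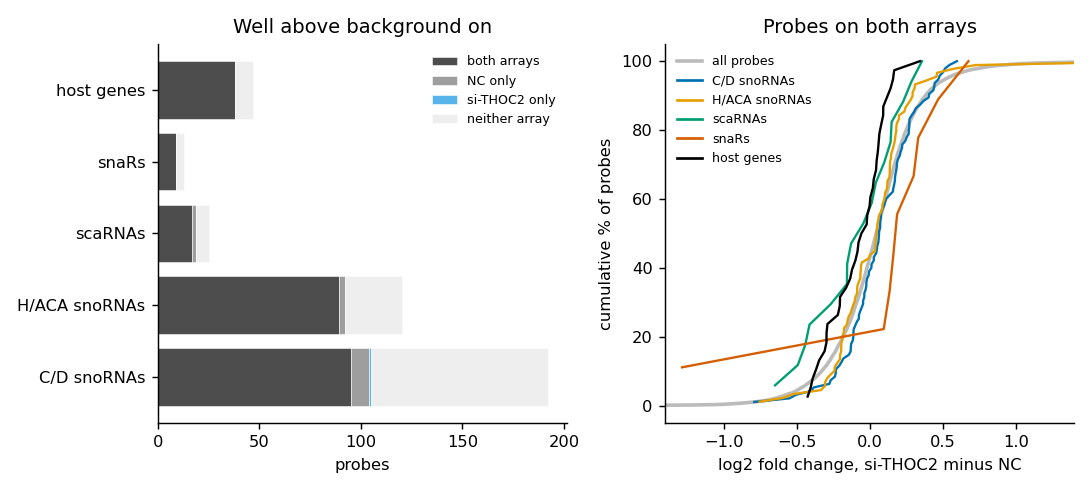
Left, number of probes of each class (bars) by the arrays on which they were well above background. Right, cumulative percent of the probes well above background on both arrays (vertical axis) against the log2 fold change, si-THOC2 minus NC (horizontal axis), by class and for all probes in grey; values past 1.4 are outside the frame. The medians lie between -0.04 and 0.19, and the host gene line ends at 0.34.

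**Figure D2:**
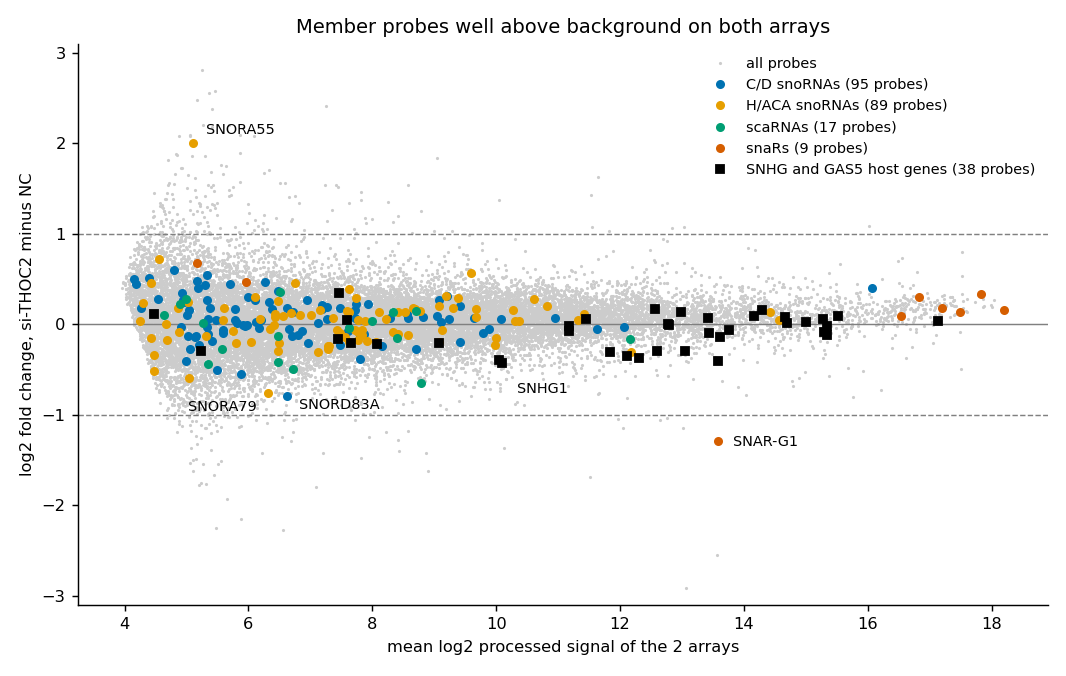
Log2 fold change, si-THOC2 minus NC (vertical axis), against the mean log2 processed signal of the 2 arrays (horizontal axis). Each point is 1 probe well above background on both arrays, members in colour and all probes in grey, and the dashed lines mark 2-fold. SNAR-G1 (-1.28) and SNORA55 (2.01) are the only member points outside the lines.

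Among members well above background on each array, SNAR-G1 was lowest. Its own probe (chr19:49540322-49540381, hg19, plus strand) gave a signal of 21223 on NC and 7027 on si-THOC2. Its log2 fold change was -1.28 ± 0.05 (technical SD), and 0.0566% of the 12373 bright probes lay lower. No other snaR probe on both arrays was below 0. SNAR-A3 had signals of 318471 and 287559 (0.16), SNAR-B2 of 230012 and 233454 (0.33), and SNAR-D of 195559 and 173338 (0.14). SNAR-H (0.19), SNAR-F (0.09) and SNAR-G2 (0.30) lay in the same range. SNAR-I, with signals of 31.6 and 40.7, gave 0.67. The range from SNAR-F to SNAR-B2 lay above the 0.06 median of all bright probes. A further probe named SNAR-G1, built on an EST and unplaced in the genome, had signals of 58.9 and 65.7 (0.47), opposite in direction to the SNAR-G1 probe above. In the block of spots that holds the latter, 9.47% of 190 compared probes were lower by 2-fold or more, and after centring on that block it stood at -1.22. Averaged over both of its probes, the gene gave -0.41 and did not reach 2-fold.

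The snaR sequences are shown because members of the family are close relatives and a probe may read several of them. Capitals mark, in each probe, the longest stretch shared with the SNAR-B2 probe (for SNAR-B2, with SNAR-D). For SNAR-I, it is the stretch shared with the reverse complement of SNAR-B2, since the SNAR-I probe is written in the opposite sense. On hg19 the probes lie at chr19:48427077-48427136 (plus strand), chr19:50637012-50637071 (minus), chr19:50643469-50643528 (minus), chr19:49540322-49540381 (plus), chr19:49534934-49534993 (minus) and chr3:190595730-190595789 (plus).
SNAR-A3: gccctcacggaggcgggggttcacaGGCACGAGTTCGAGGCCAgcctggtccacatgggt
SNAR-B2: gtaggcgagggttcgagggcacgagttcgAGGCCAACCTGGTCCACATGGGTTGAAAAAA
SNAR-D: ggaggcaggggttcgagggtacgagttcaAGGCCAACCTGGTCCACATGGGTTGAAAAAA
SNAR-G1: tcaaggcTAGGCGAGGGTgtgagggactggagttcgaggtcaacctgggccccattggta
SNAR-G2: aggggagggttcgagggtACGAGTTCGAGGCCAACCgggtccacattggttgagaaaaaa
SNAR-I: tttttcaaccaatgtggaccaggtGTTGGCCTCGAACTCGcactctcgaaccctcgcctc

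The SNAR-B2 and SNAR-D probes shared 31 bases in a row and differed by 5 edits over the whole probe, so their values are 2 readings of nearly 1 sequence. SNAR-G1 shared 11 bases in a row with SNAR-B2 and lay 22 edits from it, and 26 edits from SNAR-G2. Counted end to end, its nearest snaR probes were SNAR-A3 and SNAR-H at 21 edits, a count that also grows where 2 probes start at different bases. With the outer bases of 1 probe left off and the rest free to slide along the other, the distances were smaller. SNAR-G1 then lay 7 edits from SNAR-F and SNAR-H, 9 from SNAR-B2 and SNAR-G2, and 11 from SNAR-A3. The stretch that SNAR-G1 shared with SNAR-B2 was the shortest of those found. SNAR-B1, SNAR-C3, SNAR-C4 and SNAR-E, built on other records, were not well above background on either array.

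**Figure D3:**
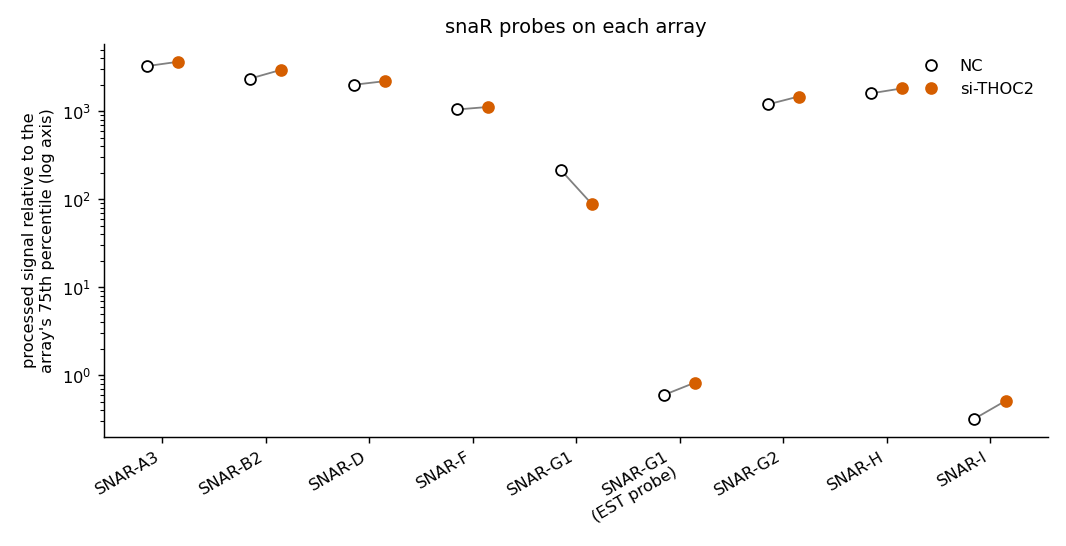
Processed signal divided by the array's 75th percentile (vertical log axis) for each snaR probe well above background on both arrays (horizontal axis), NC as open and si-THOC2 as filled circles. Lines join the arrays for 1 probe. The own-record SNAR-G1 probe is the only line that slopes down; positions along the vertical axis are not comparable between probes.

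Among H/ACA snoRNAs, SNORA55 was the highest (chr1:40033073-40033132, hg19, minus strand). Its signal was 19.1 on NC, near the lowest signal called well above background there (14.7), and 62.1 on si-THOC2, which gave 2.01 ± 0.17 (technical SD) on the log2 scale. The value was 0.84 under normexp background correction, which draws dim signals together. The scanner software's own spot errors gave an error of 0.31 for that value. A probe of the same name on the opposite strand was not well above background on either array. SNORA79, at the other end (chr14:81669040-81669099, minus strand), had signals of 115 and 55.2 (-0.75 ± 0.10). The letters ANANNA, overlapping matches joined, are in capitals.
SNORA55: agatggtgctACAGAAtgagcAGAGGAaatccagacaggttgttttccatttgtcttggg
SNORA79: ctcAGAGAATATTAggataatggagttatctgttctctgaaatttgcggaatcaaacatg

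The other H/ACA snoRNAs lay closer to 0. SNORA2A (45.2 on NC and 24.2 on si-THOC2) gave -0.59, SNORA4 (27.8 and 17.8) gave -0.33, and a minus-strand probe named SNORA78 (29.7 and 16.7) gave -0.52. SNORA11 (20.5 and 27.3) gave 0.72, SNORA76C (705 and 843) 0.57, SNORA53 (102 and 113) 0.46, and SNORA36B (20.3 and 22.5) 0.46. A further SNORA76C probe on another record had signals of 23415 and 20724 and gave 0.13, so its probes did not give 1 value. The bright H/ACA probes did not share 1 value. SNORA16A had signals of 26680 and 22296 (0.05), SNORA57 of 2922 and 2557 (0.12), and SNORA16B of 2804 and 2346 (0.05), while a plus-strand probe named SNORA78 had 5766 and 3759 (-0.31). That SNORA78 probe shares 54 bases with the probe of the host gene SNHG9 and may read the host's RNA. SNORA16A and SNORA16B sit in different host genes, SNHG12 and PPP2R5A, but their probes are 8 edits apart and may read one another's RNA.

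C/D snoRNAs held 3 of the 4 lower calls, each on a probe that was not well above background on si-THOC2. SNORD109B had signals of 70.2 on NC and 10.5 on si-THOC2, a log2 fold change of -2.44, and with the dim side at its limit it was at least 3.57-fold lower. Under normexp it gave -0.70. It lies in the SNHG14 transcript of the imprinted 15q11-q13 region and has a nearly identical copy, SNORD109A, whose RNA the probe may also read. In its block of spots 10.4% of 212 compared probes were lower by 2-fold or more, and after centring on that block it gave -2.46. SNORD66, in an intron of EIF4G1, had signals of 26.3 and 8.11, at least 1.34-fold lower at the limit. SNORD114-3 had signals of 18.0 and 3.19, and no fold is given because the limit on si-THOC2 exceeds it. SNORD72, with 12.1 and 19.5, lay just inside 2-fold at 0.999 and was at least 1.65-fold higher at its limit. Of all probes compared, 0.888% were lower and 1.88% higher by 2-fold at the limit.

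Among C/D probes on both arrays, SNORD83A (144 on NC and 67.1 on si-THOC2) was lowest at -0.79 ± 0.10 (technical SD). SNORD83B, its relative from another intron of RPL3, had signals of 1184 and 995 and gave 0.06, and SNORD43 of the same host had 709 and 660 and gave 0.21. The SNORD83A and SNORD83B probes printed above differ by 15 edits. The RPL3 mRNA itself gave 0.10. SNORD32B (79.2 and 43.6) gave -0.55, SNORD89 (59.7 and 34.0) -0.50, SNORD59B (40.6 and 24.8) -0.40 and SNORD80 (282 and 174) -0.38. On the other side SNORD7 (25.2 and 30.7) gave 0.60, SNORD11 (36.9 and 43.5) 0.55, SNORD116-11 (19.5 and 22.5) 0.51, SNORD11B (16.7 and 19.0) 0.50 and SNORD62A (34.0 and 38.2) 0.48. These higher values rest on signals near background, where the technical SD is 0.17. Bright C/D probes lay near 0 for SNORD26 (3568 and 2788, -0.05), SNORD104 (2134 and 1815, 0.08) and SNORD83B. SNORD3B-1, a copy of the U3 RNA that takes part in the first cuts of the rRNA precursor, was read by probes of 66664 and 71293 (0.41) and of 4824 and 3815 (-0.03). Those probes lie at chr17:18965252-18965311 and chr17:18965382-18965441 (hg19, plus strand), and their difference exceeded the technical SD of 0.05.

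The clustered C/D families of the imprinted regions were mostly dark. No SNORD113 probe of 8 and 1 SNORD114 probe of 29, both from 14q32, were compared, and none of 10 SNORD115 probes. Of 10 SNORD116 probes, 5 were detected well above background on each array, at 0.01 to 0.51. SNORD116-19 had signals of 549 and 534 (0.27), SNORD116-6 of 87.0 and 79.1 (0.17), and SNORD116-26 of 62.5 and 50.8 (0.01). The SNORD116-19 and SNORD116-6 probes differ by 5 edits and may read one another's RNA. The neighbouring SNORD64 gave 0.37 and SNORD107 0.44, while the host transcript SNHG14 was not compared. SNORD109B, from the same region, was lower, while the 7 SNHG14 small RNAs measured on both arrays lay above 0 with a median of 0.37.

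The scaRNAs had 17 probes on both arrays, 9 below 0 and 8 above. SCARNA16 was lowest, with signals of 616 on NC and 317 on si-THOC2 and a difference of -0.65 ± 0.05 (technical SD), and 0.630% of all bright probes lay lower. Its host SNHG20, at 323 and 224, gave -0.22. SCARNA20 (139 and 80.0) gave -0.49, SCARNA10 (53.0 and 31.5) -0.44, SCARNA14 (115 and 69.6) -0.41 and SCARNA5 (58.0 and 38.8) -0.27. The highest were SCARNA9L (89.9 and 92.9) at 0.36, SCARNA4 (31.9 and 31.4) at 0.29, SCARNA8 (30.5 and 28.8) at 0.23 and SCARNA17 (439 and 393) at 0.15. SCARNA22 (5385 and 3897) gave -0.16, SCARNA18 (399 and 289) -0.16 and SCARNA12 (342 and 304) 0.14.

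Host genes were measured by 38 probes of 19 genes, all well above background on both arrays. Their probes had a median of -0.04 with 22 below 0 and 16 above. Of all 22207 probes on both arrays, 9565 were below 0 and 12642 above. SNHG1, host of the SNORD22 and SNORD25 to SNORD31 RNAs, was lowest, and its 2 measured probes gave close to the same value. The probe at chr11:62622606-62622665 (hg19, minus strand) had signals of 1405 on NC and 844 on si-THOC2 (-0.43 ± 0.05, technical SD). The probe at chr11:62619573-62619632 had signals of 15675 and 9554 (-0.40 ± 0.05). Both lay lower than all but 2.59% and 2.98% of the bright probes. SNHG15 had signals of 1348 and 829 (-0.39), 6376 and 3987 (-0.37), and 10502 and 6901 (-0.30) at its 3 probes. SNHG9 (5588 and 3546) gave -0.35, SNHG3 (4562 and 2970) -0.31 and SNHG10 (46.5 and 30.6) -0.30. For SNHG9, the probe shares 54 bases, in capitals below, with a probe named SNORA78 (5766 and 3759, -0.31), so those are not separate measurements. The probes start at chr16:2015445-2015504 and chr16:2015451-2015510 (hg19, plus strand).
SNHG9: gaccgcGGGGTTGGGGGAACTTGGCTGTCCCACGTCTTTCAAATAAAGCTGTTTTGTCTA
SNORA78: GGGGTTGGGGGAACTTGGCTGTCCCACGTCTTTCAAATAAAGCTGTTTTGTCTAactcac

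The middle of the host genes was formed by SNHG20 (-0.22), SNHG11 (-0.19 over 3 probes), SNHG21 (-0.18 over 2), SNHG16 (-0.13), SNHG8 (-0.12), SNHG12 (-0.10) and SNHG17 (-0.03 over 3). GAS5, a growth-arrest transcript that hosts SNORD44, SNORD47 and SNORD74 to SNORD81, had signals of 45872 and 34910 (-0.08) and of 157289 and 130710 (0.04), a mean of -0.02. The GAS5 mean was -0.12 after quantile normalization, -0.15 after lowess centring and -0.14 after normexp. At the upper end stood SNHG18 (0.05), SNHG5 (0.05 over 6 probes, 0.00 to 0.09), SNHG7 (0.11 over 4), SNHG4 (0.12), SNHG6 (0.13 over 3) and SNHG19 (0.17). Within SNHG7, the 3 probes of higher signal gave -0.02 to 0.07 and the probe of 173 and 177 gave 0.34. Neighbours in this order differed by less than their technical SD in most places. The signs of SNHG18 and SNHG5 each turned negative under at least 1 other scaling (the lowest were -0.01 and -0.06). After normexp background correction they were -0.04 and -0.08. SNHG7 stayed above 0 under each of the scalings and was -0.01 after normexp background correction. SNHG22 and SNHG23 were not well above background on either array.

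Below -0.25 lay 8 of the 36 bright host gene probes (22.2%), against 8.41% of the 12373 bright probes of the array, and 1 lay above 0.25 (15.9% of the array). Those 8 probes came from SNHG1, SNHG15, SNHG9, SNHG3 and SNHG11. Several probes of 1 gene are not separate events, so the count is 5 genes. Among the 102 bright small RNA probes, 5 (4.90%) lay below -0.25 and 11 (10.8%) above 0.25. The plus-strand SNORA78 probe, which overlaps the SNHG9 probe, is among those 5, so that signal is counted in both groups.

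**Figure D4:**
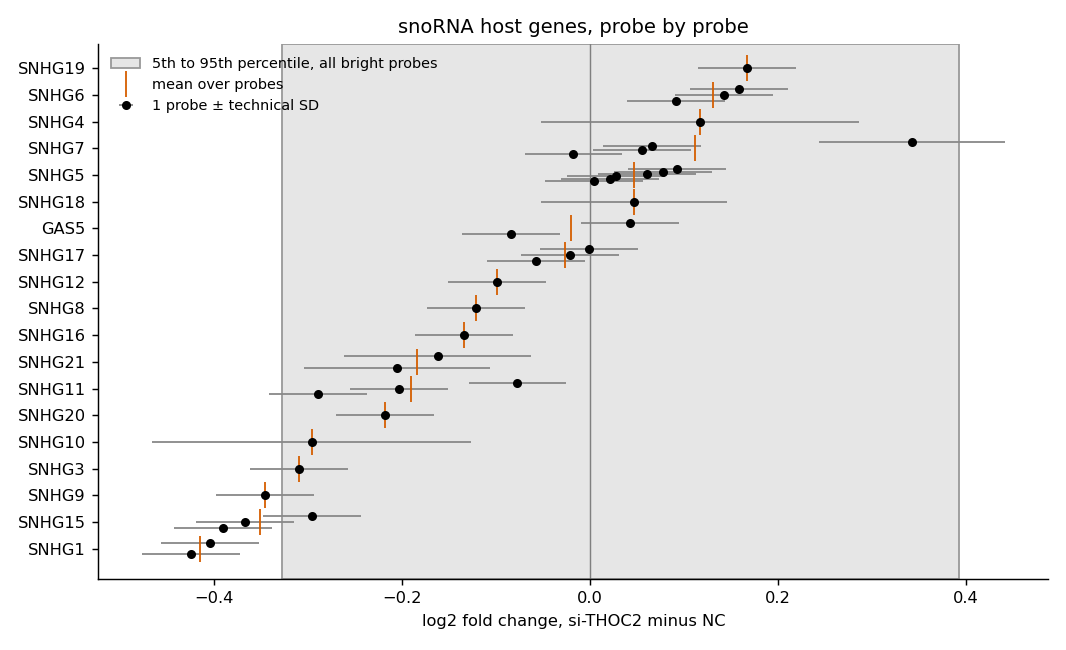
Log2 fold change, si-THOC2 minus NC (horizontal axis), of each host gene probe well above background on both arrays, by gene (vertical axis). Points are probes with the technical SD as bars, ticks are means over probes, and the shaded band runs from the 5th to the 95th percentile of all bright probes (-0.33 to 0.39). Below the band lie both SNHG1 probes, 2 of the 3 SNHG15 probes and the SNHG9 probe.

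Small RNAs were set beside the gene that holds them on the same strand in the RefSeq annotation. A host was found for 243 small RNA probes, 67 of them in an SNHG gene or GAS5. Of the own-record probes, 143 in 88 hosts were measured on both arrays, in hosts with at least 1 probe on both arrays. A host's value was the mean of all its compared probes. For NAP1L4, HAUS6 and ASTN2, 1 of the 2 averaged probes was well above background on 1 array alone. NAP1L4, the lowest host at -0.73, averaged probes of -1.38 and -0.08. The median host stood at 0.05, and the median over hosts of each host's small RNA median at 0.06. The correlation of a host's value with the median of its small RNAs was -0.08 (Pearson's r) and -0.04 (Spearman's rho) over the 88 hosts, as a description across genes of the same 2 arrays. For the 13 SNHG or GAS5 hosts, r was 0.17 and rho 0.24. Those 13 leave out SNHG3, SNHG5, SNHG6, SNHG7, SNHG9 and SNHG15, in which the matching placed no own-record small RNA probe. SNHG15, SNHG9 and SNHG3, among the lowest host genes, thus had no part in this comparison.

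Hosts with 3 or more small RNAs on both arrays are described next, a choice made with their values known. The 7 measured snoRNAs of SNHG1 all lay above their host at -0.42. SNORD25 (50.4 and 35.9) gave -0.18, SNORD22 (222 and 170) -0.08, SNORD26 (3568 and 2788) -0.05, SNORD29 (80.8 and 63.5) -0.04 and SNORD31 (70.0 and 56.3) -0.01. SNORD27 (161 and 149) gave 0.19 and SNORD30 (31.3 and 30.5) 0.27. SNORD28, with 24.8 and 15.9, was well above background on NC alone and at least 1.26-fold lower. TAF1D (-0.27) likewise lay below each of its 7 small RNAs, from SNORA32 at -0.19 to SNORA25 at 0.04. SNHG16 (-0.13) lay below SNORD1A (0.28), SNORD1B (-0.09) and SNORD1C (0.30), and SNHG12 (-0.10) below SNORD99, SNORA44, SNORA61 and SNORA16A (-0.05 to 0.22).

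At the other end, some of the higher hosts stood above all of their small RNAs and others did not. The TBRG4 mRNA gave 0.13 while SNORA5A (188 and 128), SNORA5B (78.5 and 55.3) and SNORA5C (25.1 and 18.2) gave -0.24, -0.20 and -0.15. The SNORA5A and SNORA5B probes are 4 edits apart. EIF4A2, a translation initiation helicase, gave 0.18 while SNORA4 gave -0.33, SNORA63 -0.29 and SNORA81 0.12. NOP56 (0.23), RPL7A (0.24) and EIF4A1 (0.06) also lay above each of their measured small RNAs. By contrast, ZFAS1 (0.08) had 2 of its 3 small RNAs above it, RPL13A (0.14) 1 of 4 and RPL3 (0.10) 1 of 3. SNHG17 (-0.03) had 1 of its 4 above it. GAS5 (-0.02) had 3 of its 6 measured snoRNAs above and 3 below, from SNORD80 at -0.38 to SNORD77 at 0.18. In KANSL2 (-0.02), SNORA2A gave -0.59 and SNORA2B 0.39. The small RNAs of KANSL2 and those of RPL3 (-0.79 to 0.21) each spanned more than the 15 hosts did (-0.42 to 0.24). The low end of each span is a single probe, SNORA2A and SNORD83A, with technical SDs of 0.17 and 0.10. Host values are means where a host has several probes, so the spans are not of equal precision.

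**Figure D5:**
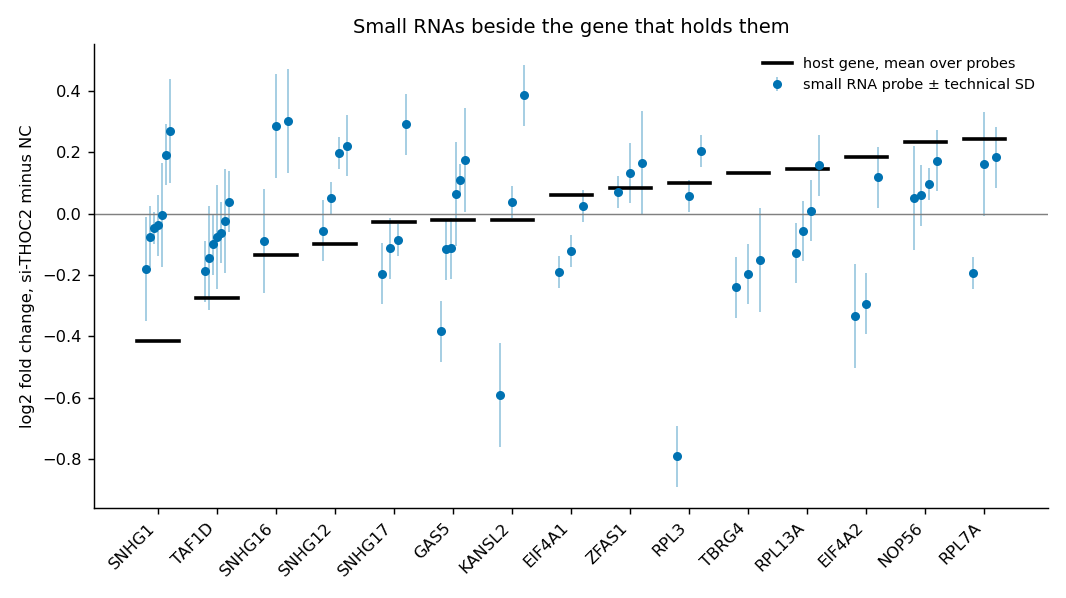
Log2 fold change, si-THOC2 minus NC (vertical axis), of 15 host genes (black lines, mean over probes) with 3 or more small RNA probes on both arrays (points, bars are the technical SD), ordered by the host's value along the horizontal axis. Every small RNA of SNHG1 and TAF1D lies above the host line and every one of TBRG4 and RPL7A below it.

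The genes of the snoRNA proteins were near the level of all genes (median 0.03), and none reached 2-fold. Of all 19892 genes compared, 9198 were below 0 and 10694 above, to be set beside the counts below. Of 12 snoRNP protein genes, 3 were below 0 and 9 above, with a median of 0.10. Those of the C/D particle were FBL (fibrillarin, the methyltransferase; 60640 and 57609) at 0.24, NOP56 at 0.23, SNU13 at 0.05 and NOP58 (4157 and 2554) at -0.39. Those of the H/ACA particle were DKC1 (dyskerin, the pseudouridine synthase; 8094 and 7926) at 0.28, NHP2 at 0.10, GAR1 at 0.07 and NOP10 at -0.03. NOP58 was the lowest of the 12. Of 20 genes for assembly and processing of the particles, 19 were compared, 11 below 0 and 8 above, with a median of -0.01. Of 10 nonsense-mediated decay genes, 4 were below 0 and 6 above, with a median of 0.01, and UPF1, the helicase of that pathway, gave 0.25 (10612 and 10152). Of 41 protein-coding snoRNA hosts, 39 were compared, and 33 were above 0 with a median of 0.15. That median was 0.0008 after quantile normalization and 0.0346 after lowess centring, and the count above 0 was not repeated under those settings.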

How the data were processed

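The authors deposited the scanner output of 1 single-colour Agilent SurePrint G3 v3 array per condition, made with Feature Extraction 10.7.1.1. Its processed signals are intensity values after background subtraction. A deposited table of normalized log2 values, used here as an alternative, came with a table of fold changes from the authors' own comparison, which was not used. Total RNA was isolated with the mirVana kit per the labels, and no enrichment of small RNAs was stated.

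Control spots and outlier spots (230 on NC, 253 on si-THOC2) were removed, none was saturated, and repeated spots were averaged as log2 values, giving 58199 probes. Each array's 75th percentile was subtracted. A probe entered the comparison when either array called it well above background. No test was possible with 1 array per condition, and the methods' Student test was not run. The number of arrays limits the precision. A dim signal was placed at the higher of its own level and the lowest detected signal of its array (14.7 on NC, 15.9 on si-THOC2) to give a bound. Probes of 1 gene were averaged.

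Probe sequences and positions (hg19) are those of the deposited annotation. Records and hosts were matched through RefSeq GRCh38.p14, which named all 339 member genes; an older symbol was used only where it belongs to 1 gene. Sequence distances are edit distances over 60 bases, except the snaR distances given with outer bases left off.

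The members and gene lists were chosen with earlier results of these data known. The named small RNAs are those past 2-fold on both arrays or at their bound, up to the 5 lowest, highest and brightest of each class, and the residents of hosts described; SNORD66, SNORD114-3, SNORD72 and the SNORD116 RNAs were added after their values were seen. The calculation was tested on simulated data. Alternatives were quantile normalization, the median of probes on both arrays, lowess centring (span 0.3), normexp (offset 50), the authors' normalized values, dim signals at their limit, both arrays only, all probes without a detection filter, centring by blocks of spots (16 by 8), a fold of 3 and genes in place of probes. A 75th percentile over probes on both arrays was added after seeing the data. Python 3.11.15, numpy 2.4.6, pandas 2.3.3, statsmodels 0.14.6, R 4.3.3 and limma 3.58.1 were used.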

Additional observations from a re-analysis of the deposited data

How the results depend on the processing

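No paired analysis was possible because each condition had 1 array. No member at 2-fold changed direction under any alternative that gave it a value. The own-record SNAR-G1 probe stayed past 2-fold under each of the 10 alternatives run for single probes, but at a fold of 3 the call was lost, and with genes in place of probes SNAR-G1 gave -0.41 over its 2 probes and the call was lost too. SNORA55 stayed past the threshold under each alternative run except normexp, while the 3 lower C/D calls need a signal that was dim on si-THOC2. The count of lower small RNA probes, 4, became 1 with normexp, 1 with both arrays only, 7 with no detection filter, 2 with dim signals at their limit, 2 at a fold of 3 and 3 with genes in place of probes. The count of higher ones, 1, became 2 with lowess centring, 0 with normexp, 7 with no detection filter and 2 with block centring. Host genes gained 1 higher probe with no detection filter. Over all probes, 844 lower and 743 higher became 33 and 79 with normexp, 81 and 184 with both arrays only, 1929 and 3127 with no detection filter, 225 and 476 at the limit, and 502 and 447 at a fold of 3. Normexp with its offset shrinks dim ratios by construction, and the mean of the THOC2 probes was -0.51 under it (-1.03 as reported, and -1.09 to -1.02 under the other alternatives).

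The host gene median of -0.04 was -0.11 with quantile normalization, -0.14 with lowess, -0.15 with normexp, -0.11 with the authors' values, -0.12 over genes and -0.10 with the added percentile. The snoRNP protein median of 0.10 was 0.0314, 0.0126, -0.0107, 0.0315 and 0.0391 under the same settings other than genes, and that of protein-coding hosts (0.15) was 0.0008, 0.0346, 0.0182, 0.01 and 0.0895. The nonsense-mediated decay median was -0.0460 with the added percentile. Of the 263 member probes compared, 58 moved by more than their technical SD with quantile normalization and 58 with the authors' values. With lowess centring 62 did, with the added percentile 98, with normexp 141 and with block centring 39. The cause of these shifts was not tested. Of the 350 small RNA probes, 125 were not well above background on either array and were not compared (32854 of all 58199 probes).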

Other observations

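Of the small RNA probes well above background on 1 array alone, 14 were so on NC and 1 on si-THOC2, against 2409 and 729 of all probes. Among small RNA probes on the strand opposite to the named RNA, 2 of 12 were compared and none was well above background on both arrays. Of the 107 small RNA probes without a host in the annotation, 51 were compared and 47 were measured on both arrays. Among the 51 compared, 2 were lower by 2-fold or more (SNAR-G1 and SNORD114-3) and 1 was higher (SNORA55). Over all probes compared, 3.33% were lower and 2.93% higher by that much.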
